A study of Mus musculus with 9 samples.

Results

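The genes described here are 49 mouse genes that build epithelial cell junctions or govern the transition between epithelial and mesenchymal states, out of 22784 gene symbols in the deposited tables. They were chosen by name, with earlier results of these data known. The set held 6 genes in a group of cadherins with Epcam, 4 catenins, 8 desmosomal genes and 13 tight junction genes. It also held 3 polarity genes, 5 epithelial regulators, 5 transition factors, vimentin and 4 connexins. Values of all 49 came from RNA-seq of FVB MOE cells, a line of mouse oviductal epithelium that the study describes as monoclonal and purely secretory. All cells were hormone starved for 48 h in phenol red free medium with charcoal-stripped serum and then treated for 24 h, 3 samples each, with the solvent DMSO (0.1%), with 1 nM 17β-estradiol (E2) or with 100 nM 4-hydroxytamoxifen (4OHT), which binds the estrogen receptor and can act as its agonist or antagonist. The strain was FVB in every sample, and the line was normally grown with estradiol in its medium before the starvation. The comparisons ask which of these genes differ with E2, with 4OHT, and between the ligands. One clone of cells stands for the oviductal epithelium here, and nothing in the labels says that the 3 samples of a condition were separate cultures, so p-values measure only the spread between these samples, which may be technical.

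Epithelial cells are held together by adherens junctions, in which cadherins join neighbouring cells and catenins tie them to actin, by desmosomes, which anchor keratin filaments, and by tight junctions of claudins and their scaffolds, which seal the space between cells. Gap junctions of connexins let small molecules pass from cell to cell. In an epithelial-mesenchymal transition, factors of the Snail, Zeb and Twist families repress E-cadherin and other epithelial genes, while N-cadherin and vimentin come up, and cells may stop at mixed states between both ends. In the oviduct, secretory and ciliated cells form 1 epithelial layer that responds to ovarian hormones.

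The line carried keratins without E-cadherin. FPKM counts fragments relative to transcript length and sequencing depth, so levels may be set side by side between genes. Krt8 stood between 334 and 623 FPKM and Krt18 between 428 and 799 FPKM over the 9 samples, and Pax8, a transcription factor of Mullerian secretory cells, between 105 and 150 FPKM. Foxj1, which directs the ciliated cell programme, was between 8.95 and 15.9 FPKM in a line described as secretory. Of the 6 epithelial markers listed, 4 were at 1 FPKM or more in all 9 samples, and the other 2, Cdh1 and Epcam, were below 1 FPKM in all 9. The defining leukocyte marker Ptprc did not exceed 0.0271 FPKM, the endothelial marker Pecam1 did not exceed 0.0783 FPKM, and the fibroblast marker Pdgfra did not exceed 0.111 FPKM. In the same lists, Cd68 lay between 3.01 and 4.01 FPKM, Col1a1 between 1.84 and 6.73 FPKM and Kdr between 0.445 and 1.28 FPKM. Kdr averaged 0.599 FPKM in DMSO and 1.17 FPKM in E2, 0.44 higher with E2 on the log2(FPKM + 1) scale (limma adjusted p = 0.00326 with the replicate block described further on, 0.122 without). Of the 4 smooth muscle markers, Acta2 lay between 932 and 1724 FPKM and Cnn1 between 10.0 and 36.5 FPKM, and the other 2 below 1 FPKM. Of the 4 mesothelial and ovarian surface markers, Msln lay between 99.1 and 188 FPKM, Wt1 between 26.33 and 45.35 FPKM and Upk3b between 1.31 and 3.51 FPKM. Lrrn4 did not exceed 0.00853 FPKM. The summed level of the 6 fibroblast and stroma markers was 3.69 to 7.83 FPKM in DMSO, 10.8 to 23.2 FPKM in E2 and 5.24 to 8.54 FPKM in 4OHT, most of it Dcn in E2, while the 6 epithelial markers summed to 1306 to 1449, 2171 to 2439 and 1330 to 1566 FPKM. The part of these shifts in the results that follow was not tested, and in bulk samples fewer cells of a type cannot be told apart from less RNA per cell.

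Of the 49 members, 29 reached 1 FPKM in at least 3 samples and were tested, and 20 stayed below 1 FPKM in every sample. Among the 29, 4 had a mean of at least 100 FPKM, 15 lay between 10 and 100 FPKM and 10 between 1 and 10 FPKM. The top of the order held Vim, Ctnnb1, Perp and Cldn1, followed by Ctnna1, Ctnnd1, Cdh6 and Cldn12. The highest value among the 20 was 0.898 FPKM, in 1 of the 2 rows of Marveld3, and 6 members never reached 0.1 FPKM. All 4 catenins and all 3 polarity genes were tested, against 3 of 6 genes in the cadherin group, 5 of 8 desmosomal genes, 6 of 13 tight junction genes, 2 of 5 epithelial regulators, 4 of 5 transition factors and 1 of 4 connexins.

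**Figure D1:**
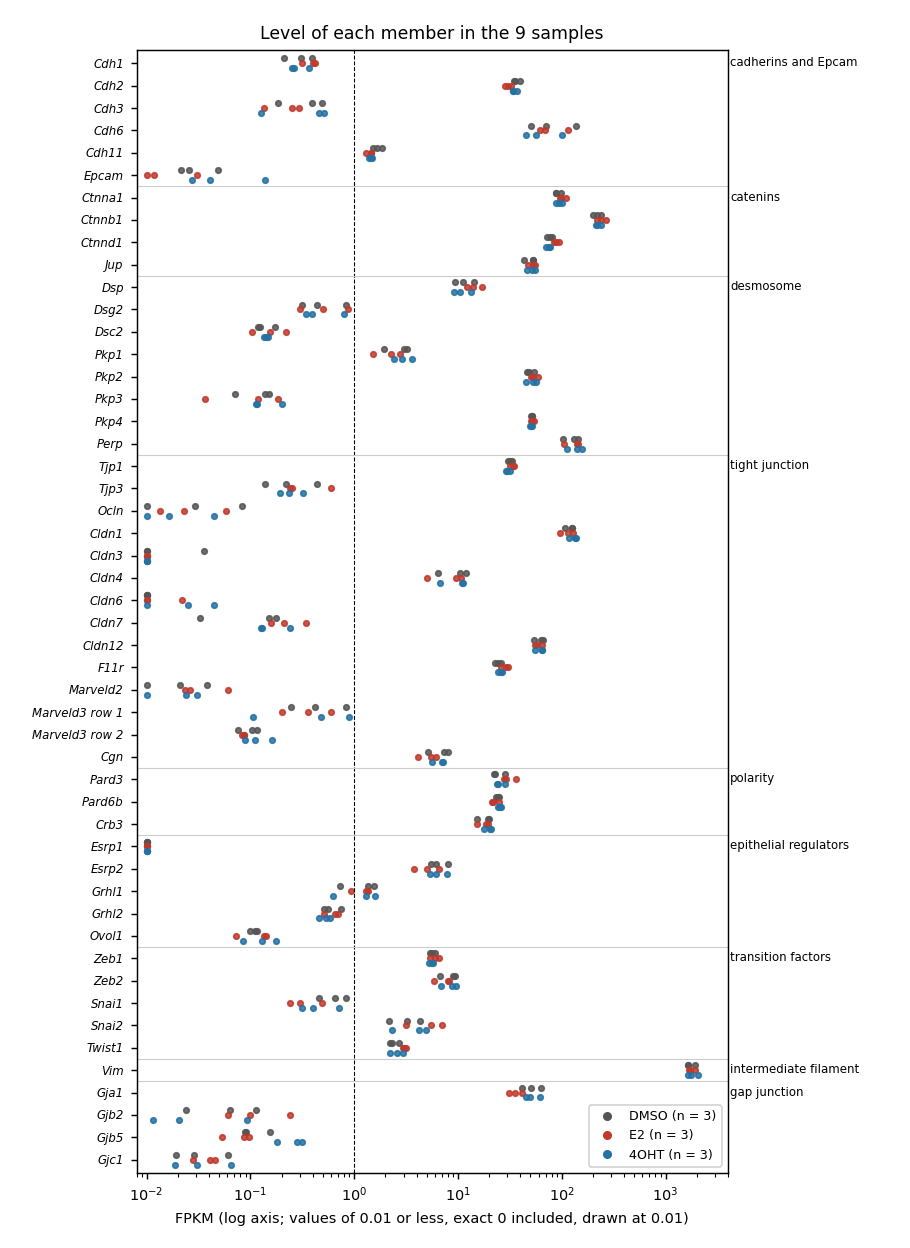
FPKM of each of the 49 members (50 rows, since Marveld3 has 2) in the 9 samples, on a log axis, grouped by role; each point is 1 sample, coloured by condition (n = 3), and the dashed line marks 1 FPKM. The 29 tested members lie at or above the line in at least 3 samples, and Cdh1, Epcam, Ocln, Cldn3, Cldn6 and Cldn7 lie below it.

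E-cadherin, P-cadherin and Epcam, the cell adhesion molecule that marks most simple epithelia, were all close to the floor. Cdh1 was measured at 0.310, 0.211 and 0.393 FPKM in DMSO replicates 1 to 3, at 0.422, 0.313 and 0.401 FPKM in E2 and at 0.261, 0.254 and 0.364 FPKM in 4OHT. Those ranges overlapped between all conditions, although each E2 value was above its same-numbered DMSO and 4OHT partners. With no filter on low values, Cdh1 differed by 0.08 for E2 against DMSO and 0.09 for E2 against 4OHT on the log2(FPKM + 1) scale. Neither passed (limma adjusted p = 0.196 and 0.136 with the replicate block, 0.7485 and 0.629 without). Epcam was at 0.0256, 0.0213 and 0.0486 FPKM in DMSO, at 0.0304, 0 and 0.0118 FPKM in E2 and at 0.0275, 0.138 and 0.0411 FPKM in 4OHT, and its highest value fell in a single 4OHT sample. Cdh3 lay between 0.126 and 0.512 FPKM. The other members below 1 FPKM were the desmosomal Dsg2, Dsc2 and Pkp3, the tight junction genes Tjp3, Ocln, Cldn3, Cldn6, Cldn7, Marveld2 and Marveld3, the epithelial regulators Esrp1, Grhl2 and Ovol1, the transition factor Snai1 and the connexins Gjb2, Gjb5 and Gjc1. Cldn3 was listed at 0 in 8 of 9 samples, Esrp1 in 7 and Cldn6 in 6, and an exact 0 can be a failed estimate in such tables, although none of the 29 tested members held one.

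Of the cadherins in this set, N-cadherin and K-cadherin were the abundant ones. Cdh16 (kidney-specific cadherin), which is no member and is named after its values were seen, lay between 92.4 and 132 FPKM over the 9 samples and passed in no comparison. Cdh2 (N-cadherin) was at 34.8, 39.9 and 35.2 FPKM in DMSO, at 28.7, 32.4 and 30.4 FPKM in E2 and at 34.0, 37.1 and 33.8 FPKM in 4OHT. The 3 E2 samples were the lowest of the 9, with no overlap with either other condition. Cdh6 (K-cadherin) was at 138, 50.6 and 70.8 FPKM in DMSO, at 114, 61.1 and 68.3 FPKM in E2 and at 99.6, 44.9 and 56.6 FPKM in 4OHT, with replicate 1 far above the others in each condition. Cdh11, a mesenchymal cadherin, was near the filter at 1.85, 1.67 and 1.53 FPKM in DMSO, at 1.45, 1.31 and 1.46 FPKM in E2 and at 1.45, 1.38 and 1.47 FPKM in 4OHT, so both treated groups lay below all DMSO samples.

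Levels of many members moved with the replicate number. Samples of the same number deviated together across all tested genes, as described with the processing. Among the 29 members, replicate 1 was the highest of its condition in all 3 conditions for 8 and the lowest for 10. For Cdh6, replicate 1 exceeded the mean of replicates 2 and 3 by 1.19, 0.81 and 0.97 on the log2(FPKM + 1) scale in DMSO, E2 and 4OHT. For Cldn4, the differences were -0.73, -0.89 and -0.63. The limma fit was therefore made without and with the replicate number as a block, and the counts of both are given. Without the block, no member passed an adjusted p of 0.05 in any comparison, and the calls named in the following paragraphs are those of the fit with the block unless stated.

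**Figure D2:**
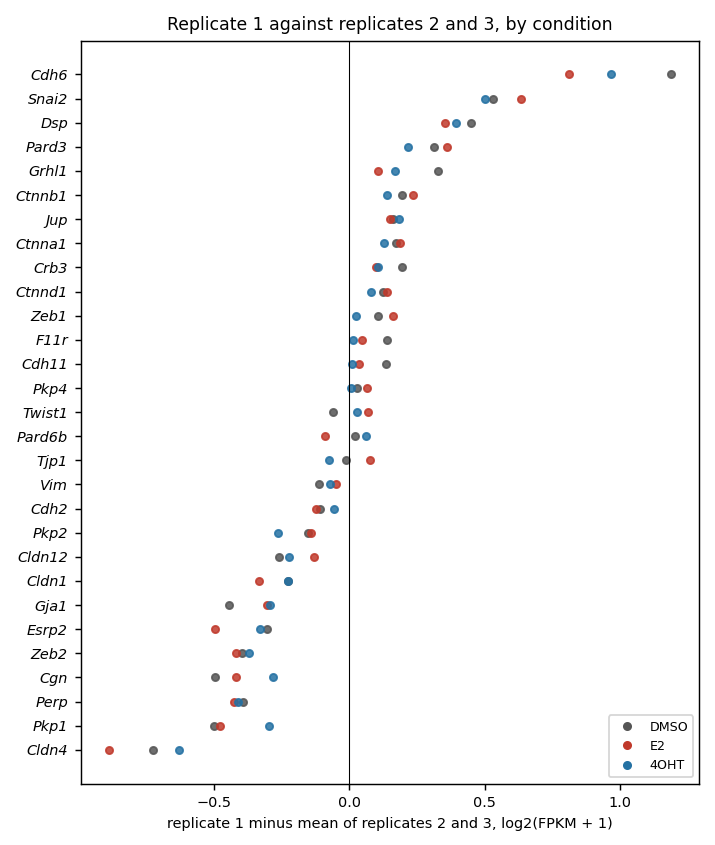
Level in replicate 1 minus the mean of replicates 2 and 3, on the log2(FPKM + 1) scale, for each of the 29 tested members in DMSO, E2 and 4OHT (1 point a condition). The points of a gene lie close together, from Cldn4 at the low end to Cdh6, at 1.19 in DMSO, at the high end.

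In E2 against DMSO, 0 of 29 members passed an adjusted p of 0.05 in limma without the replicate block, where 0.582% of all tested rows did. The smallest adjusted p among them was 0.245, and 6 of 29 had an unadjusted p under 0.05, where 10.9% of all rows did. With the block, 15 of 29 passed in limma, 9 higher and 6 lower in E2, while 18.5% of all tested rows passed, 12% higher and 6.46% lower. As the members were chosen with earlier results of these data known, their share and that of all rows are no independent comparison. The 9 higher members were Ctnna1, Ctnnb1, Ctnnd1, Dsp, Pkp2, F11r, Pard3, Snai2 and Twist1, and the 6 lower were Cdh2, Pkp1, Cgn, Esrp2, Zeb2 and Gja1. Changes were small on the log2(FPKM + 1) scale, which is that of every log2 difference given here. Differences ran from -0.50 to 0.54, the median was 0.0244 (all rows, -0.00181), and the median size without sign was 0.14 (all rows, 0.0845). All E2 samples lay above or below all DMSO samples for 5 of 29 members, where 15.2% of all rows did, and 21 of 29 members moved the same way in all 3 same-numbered pairs, where 52.4% of all rows did. The count depended on single samples: leaving out 1 sample at a time, the blocked fit called between 6 members (without DMSO replicate 2) and 12 (without 4OHT replicate 2 or 3), and 7 without replicate 1 of every condition. Calls over all rows fell too, from 2096 with all samples to between 946 and 1858 in the 9 fits that leave out 1 sample. Of the 15, 6 passed in all 9 of these fits: Gja1, Cdh2, Cgn, Esrp2, Pard3 and Snai2. With the block and no filter on low values, 9 of the 29 passed, these 6 and F11r, Ctnna1 and Ctnnd1. The share of all rows called with no filter, or without replicate 1, is not given here, so those counts are not particular to the members.

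In E2 against 4OHT, 0 of 29 members passed in limma without the block (0.327% of all rows; smallest adjusted p 0.256; 5 of 29 at an unadjusted p under 0.05, against 11.7% of rows). With the block, 15 of 29 passed, 6 higher and 9 lower in E2, while 21.5% of all rows passed, 10.6% higher and 10.9% lower. Scaled to the upper quartile, the blocked fit also called 15, but 8 higher and 7 lower. The higher members were Cdh6, Ctnnd1, Dsp, F11r, Pard3 and Snai2, and the lower ones were Cdh2, Pkp1, Cldn1, Cldn4, Cgn, Pard6b, Esrp2, Zeb2 and Gja1. Groups did not overlap for 4 of 29 members, where 18.3% of all rows did not, and 21 of 29 kept 1 direction in all 3 pairs, where 55.2% of rows did. Between 4 members (without 4OHT replicate 1) and 13 passed when 1 sample was left out, 5 passed without replicate 1 of every condition, and 4 passed in all 9 fits: Gja1, Cgn, Pard3 and Snai2. Over all rows, the 9 fits that leave out 1 sample called 658 to 2363 rows, against 2435 with all samples. With the block and no filter on low values, 9 of the 29 passed, and the share of all rows in that fit is not given here. This comparison shares its E2 samples with the one against DMSO, so the calls of both are not independent.

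In 4OHT against DMSO, 0 of 29 members passed in limma, without the block (0% of all rows) or with it (0.124% of all rows). The smallest adjusted p was 1 without and 0.265 with the block, and at an unadjusted p under 0.05 there were 0 and 5 members, against 2.65% and 13.8% of rows. Log2 differences ran from -0.32 (Cdh6) to 0.17 (Snai2), and the 95% intervals of the blocked fit reached from -0.51 to 0.31 over the 29 members. Groups did not overlap for 1 of 29 members, Cdh11, where 7.94% of all rows did not overlap, and 14 of 29 kept 1 direction in all 3 pairs, where 45.9% of rows did.

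**Figure D3:**
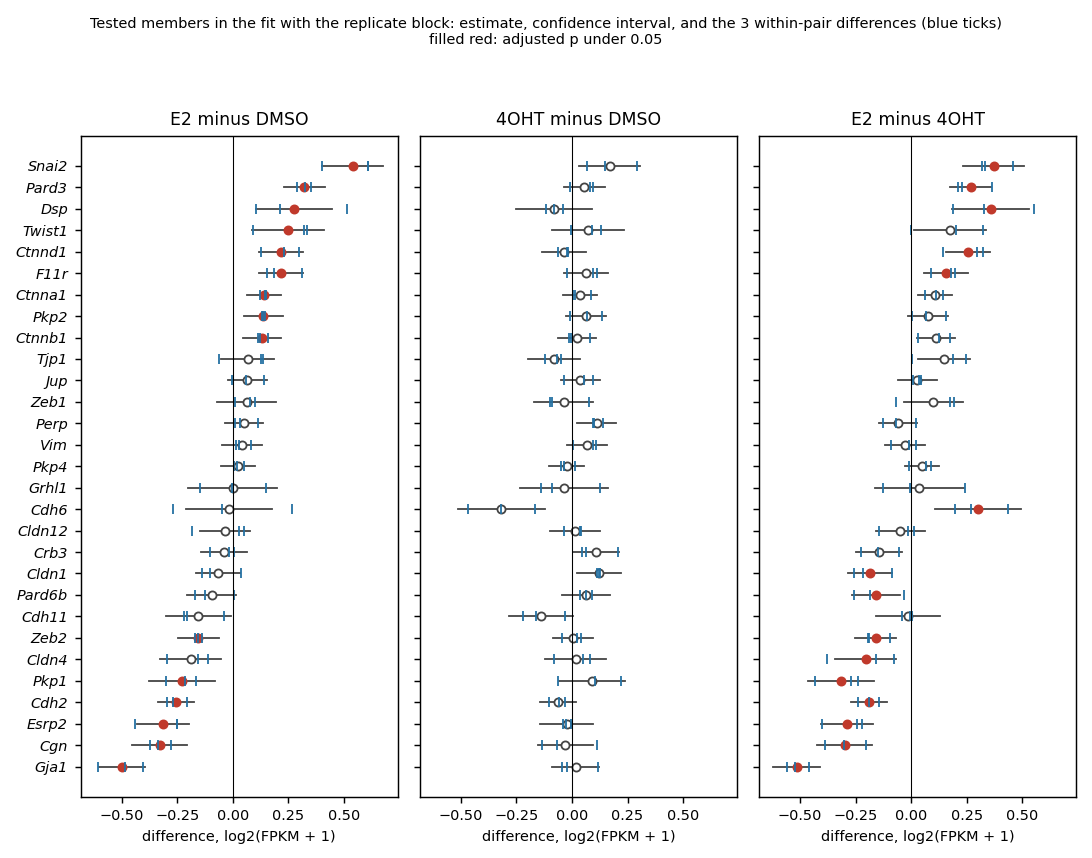
Difference in log2(FPKM + 1) for the 29 tested members in the limma fit with the replicate block, for E2 minus DMSO, 4OHT minus DMSO and E2 minus 4OHT; points are estimates, lines 95% intervals, blue ticks the 3 same-numbered pairs, and filled points have an adjusted p under 0.05. Filled points number 15, 0 and 15, with Snai2 and Gja1 at the ends of the first panel.

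The gap junction gene Gja1 had the lowest log2 difference of any member in both E2 comparisons. Gja1 encodes connexin 43, the channel subunit of many tissues. It was at 41.4, 63.8 and 50.5 FPKM in DMSO, at 31.1, 41.5 and 35.8 FPKM in E2 and at 45.0, 61.8 and 49.7 FPKM in 4OHT. Each E2 sample lay below its same-numbered partners, and the highest E2 value just exceeded the lowest DMSO value. The mean was 51.9 ± 11.3 FPKM (SD, n = 3) in DMSO, 36.1 ± 5.24 FPKM in E2 and 52.1 ± 8.63 FPKM in 4OHT. The log2 difference was -0.50 (SE 0.0455) for E2 against DMSO (limma adjusted p = 0.000391 with the block, 0.346 without) and -0.51 for E2 against 4OHT (0.000472 with, 0.36 without). For 4OHT against DMSO it was 0.02, with a 95% interval of -0.09 to 0.12. The connexins Gjb2, Gjb5 and Gjc1 stayed at or under 0.316 FPKM. In fits with no filter on low values, none of the 20 members below 1 FPKM passed in limma without the block (1 of 21 rows at an unadjusted p under 0.05 in each comparison), and with the block 0, 0 and 2 rows passed for E2 against DMSO, 4OHT against DMSO and E2 against 4OHT (4, 1 and 4 at an unadjusted p under 0.05). The 2 were Gjb5 and Gjb2, both near the floor, reaching 0.316 and 0.24 FPKM at most. For Gjb5 the difference of E2 from 4OHT was -0.22 on the log2(FPKM + 1) scale (limma adjusted p = 0.0174 with the block, 0.162 without). For Gjb2 it was 0.12 (0.0423 with the block, 0.565 without). The share of all rows called in these fits is not given here.

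Snai2 (Slug), a repressor of E-cadherin, had the highest log2 difference of the members with E2. Its level was 4.30, 3.25 and 2.17 FPKM in DMSO, 7.09, 5.49 and 3.18 FPKM in E2 and 4.88, 4.20 and 2.32 FPKM in 4OHT. The groups overlapped because the replicates spread widely, but the E2 sample was the highest of each replicate number. The mean was 3.24 ± 1.07 FPKM in DMSO and 5.25 ± 1.96 FPKM in E2, or 62.1% higher (SD, n = 3). The log2 difference was 0.54 (SE 0.0597) against DMSO (limma adjusted p = 0.000926 with the block, 0.563 without) and 0.37 against 4OHT (0.00596 with, 0.603 without). Without replicate 1 of every condition, its blocked adjusted p against 4OHT was 0.0544.

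The remaining transition factors went different ways. Twist1, a helix-loop-helix factor, was at 2.30, 2.69 and 2.20 FPKM in DMSO, at 3.15, 2.93 and 3.00 FPKM in E2 and at 2.61, 2.93 and 2.19 FPKM in 4OHT, and all E2 samples lay above all DMSO samples. Its log2 difference was 0.25 for E2 against DMSO (limma adjusted p = 0.0453 with the block), a call kept only without E2 replicate 2 or 4OHT replicate 3, and 0.17 against 4OHT (0.107 with the block). Zeb2 was at 6.71, 9.31 and 9.02 FPKM in DMSO, at 5.87, 8.25 and 8.09 FPKM in E2 and at 6.84, 9.59 and 8.70 FPKM in 4OHT, lower with E2 in each pair. The Zeb2 difference was -0.15 against DMSO (limma adjusted p = 0.0307 with the block, 0.752 without) and -0.16 against 4OHT (0.0267 with), kept in 2 and 4 of the 9 fits that leave out a sample. Zeb1, its close relative, was at 6.02, 5.67 and 5.40 FPKM in DMSO, at 6.54, 6.04 and 5.44 FPKM in E2 and at 5.60, 5.23 and 5.75 FPKM in 4OHT. For Zeb1 the difference of E2 from DMSO was 0.06, with a 95% interval of -0.07 to 0.20.

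Snai1 (Snail), below the filter and not tested, was at 0.456, 0.831 and 0.648 FPKM in DMSO, at 0.303, 0.242 and 0.489 FPKM in E2 and at 0.316, 0.711 and 0.401 FPKM in 4OHT. Each E2 value was below its DMSO partner, and the ranges overlapped. Vim, the intermediate filament of mesenchymal cells and of many cultured cells, was the highest member, at 1641, 1905 and 1646 FPKM in DMSO, at 1737, 1925 and 1676 FPKM in E2 and at 1750, 2050 and 1652 FPKM in 4OHT. The Vim difference of E2 from DMSO was 0.04, with a 95% interval of -0.05 to 0.13.

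**Figure D4:**
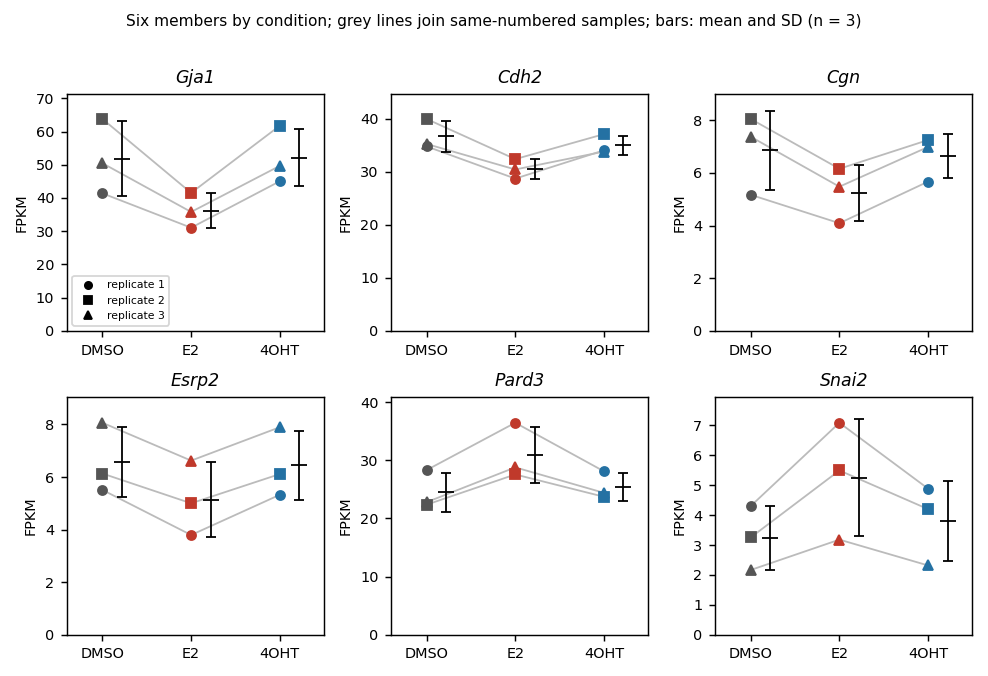
FPKM by condition for Gja1, Cdh2, Cgn, Esrp2, Pard3 and Snai2, the 6 members called for E2 against DMSO in all 9 blocked fits that leave out 1 sample; symbols mark replicates 1 to 3, grey lines join same-numbered samples, and bars give mean and SD (n = 3). In each panel the 3 lines bend the same way at E2, while the groups of all panels but Cdh2 overlap between DMSO and E2.

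Of the epithelial regulators, Esrp2, which drives epithelial splicing, was the only one above 2 FPKM. Esrp2 was at 5.51, 6.13 and 8.06 FPKM in DMSO, at 3.79, 5.00 and 6.62 FPKM in E2 and at 5.32, 6.11 and 7.89 FPKM in 4OHT, lower with E2 in every pair. Its log2 difference was -0.31 (SE 0.0512) against DMSO (limma adjusted p = 0.00544 with the block, 0.608 without) and -0.29 against 4OHT (0.00866 with, lost without 4OHT replicate 1). Esrp1, its paralog, did not exceed 0.00611 FPKM. Grhl1, a grainyhead factor, lay between 0.628 and 1.58 FPKM over the 9 samples, with log2 differences of 0.00, -0.04 and 0.04 in the 3 comparisons, and Grhl2 between 0.461 and 0.745 FPKM.

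Among the cadherins, Cdh2 passed in both E2 comparisons with the block and Cdh6 in 1. For Cdh2 the log2 difference was -0.26 (SE 0.0351) for E2 against DMSO (limma adjusted p = 0.00241 with the block, 0.245 without) and -0.19 for E2 against 4OHT (0.00965 with, 0.388 without, lost without 4OHT replicate 1). The mean was 36.6 ± 2.86 FPKM in DMSO and 30.5 ± 1.84 FPKM in E2 (SD, n = 3), a change of -16.8%. For Cdh6 the difference was 0.30 for E2 against 4OHT (limma adjusted p = 0.0406 with the block, 0.77 without), a call kept only without DMSO replicate 1, DMSO replicate 2 or E2 replicate 1. Its difference of E2 from DMSO was -0.02 and that of 4OHT from DMSO was -0.32 (limma adjusted p = 0.265 with the block). For Cdh11 the differences from DMSO were -0.15 with E2 (0.124 with the block in limma) and -0.14 with 4OHT (0.37).

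Of the 4 catenins, which link cadherins to actin or to desmosomal plaques, 3 were higher with E2 than with DMSO, each by little. Ctnnd1 (p120-catenin, which stabilises cadherins at the membrane) was at 80.8, 71.4 and 77.0 FPKM in DMSO, at 95.0, 88.1 and 84.0 FPKM in E2 and at 77.2, 70.3 and 75.9 FPKM in 4OHT, with every E2 sample above every other sample. Its log2 difference was 0.22 against DMSO (limma adjusted p = 0.0116 with the block, 0.293 without; lost without DMSO replicate 2) and 0.25 against 4OHT (0.00714 with, 0.256 without; lost without 4OHT replicate 1). Ctnnb1 (β-catenin, also an effector of Wnt signalling) was at 241, 202 and 219 FPKM in DMSO, at 269, 218 and 239 FPKM in E2 and at 238, 213 and 219 FPKM in 4OHT. The Ctnnb1 difference was 0.13 against DMSO (limma adjusted p = 0.0445 with the block), kept only without E2 replicate 2 or 4OHT replicate 2. Ctnna1 (α-catenin) was at 99.5, 88.4 and 88.1 FPKM in DMSO, at 111, 97.8 and 96.1 FPKM in E2 and at 99.9, 93.8 and 88.8 FPKM in 4OHT. For Ctnna1 the difference was 0.14 (limma adjusted p = 0.0238 with the block), kept only without E2 replicate 2 or any 1 of the 4OHT samples. Jup (plakoglobin) lay between 43.1 and 55.6 FPKM, with a difference of 0.06.

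Desmosomal genes split. Dsp (desmoplakin, which binds keratin to the plaque) was at 14.4, 9.45 and 11.2 FPKM in DMSO, at 16.9, 13.9 and 12.2 FPKM in E2 and at 13.2, 9.15 and 10.5 FPKM in 4OHT. Its log2 difference was 0.28 against DMSO (limma adjusted p = 0.0378 with the block), kept only without E2 replicate 3, and 0.36 against 4OHT (0.0154 with), lost without 4OHT replicate 1 or 2. The plakophilin Pkp1 was at 1.93, 3.26 and 3.03 FPKM in DMSO, at 1.53, 2.79 and 2.27 FPKM in E2 and at 2.42, 3.58 and 2.86 FPKM in 4OHT, lower with E2 in every pair. For Pkp1 the difference was -0.23 against DMSO (limma adjusted p = 0.0447 with the block), kept only without 4OHT replicate 1 or 3, and -0.32 against 4OHT (0.0141 with), lost without 4OHT replicate 1 or 2. Pkp2, the more abundant plakophilin, was at 46.1, 48.5 and 54.4 FPKM in DMSO, at 51.0, 53.4 and 59.7 FPKM in E2 and at 45.7, 53.2 and 57.0 FPKM in 4OHT. The Pkp2 difference was 0.14 against DMSO (limma adjusted p = 0.0439 with the block), kept only without 4OHT replicate 1 or 2. Pkp4, between 49.5 and 54.0 FPKM, and Perp, between 104 and 158 FPKM, did not pass in any comparison. The desmosomal cadherins of this set, Dsg2 and Dsc2, reached 0.866 and 0.222 FPKM at most.

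In the tight junction, Cgn and F11r differed in opposite directions. Cgn (cingulin, a cytoplasmic plaque protein) was at 5.17, 8.05 and 7.37 FPKM in DMSO, at 4.09, 6.16 and 5.48 FPKM in E2 and at 5.67, 7.25 and 6.98 FPKM in 4OHT. Its log2 difference was -0.33 (SE 0.0538) against DMSO (limma adjusted p = 0.00545 with the block, 0.54 without) and -0.30 against 4OHT (0.00908 with, 0.491 without). F11r (JAM-A, an adhesion molecule of the immunoglobulin family) was at 26.2, 22.9 and 24.4 FPKM in DMSO, at 29.2, 26.2 and 30.5 FPKM in E2 and at 25.7, 24.5 and 26.5 FPKM in 4OHT, with all E2 samples above all DMSO samples. For F11r the difference was 0.22 against DMSO (limma adjusted p = 0.0115 with the block), lost without DMSO replicate 2, DMSO replicate 3 or E2 replicate 3, and 0.15 against 4OHT (0.0381 with), kept only without DMSO replicate 1.

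Among the claudins of this set, the strands that seal the junction, Cldn1 and Cldn12 were abundant, Cldn4 was moderate, and Cldn3, Cldn6 and Cldn7 did not exceed 0.341 FPKM. Cldn25 and Cldn2, which are no members and are named after their values were seen, were expressed too. Cldn25 lay between 50.1 and 70.2 FPKM and Cldn2 between 9.81 and 32.9 FPKM, and neither passed in any comparison. Cldn1 was at 107, 125 and 126 FPKM in DMSO, at 97.1, 116 and 129 FPKM in E2 and at 116, 135 and 137 FPKM in 4OHT. The Cldn1 difference was -0.19 for E2 against 4OHT (limma adjusted p = 0.0204 with the block), kept in 5 of 9 fits that leave out a sample (lost without E2 or 4OHT replicate 1 or 2), and -0.07 for E2 against DMSO. Cldn4 was at 6.36, 10.4 and 12.0 FPKM in DMSO, at 4.99, 9.59 and 10.6 FPKM in E2 and at 6.79, 10.8 and 11.3 FPKM in 4OHT. Its difference was -0.21 for E2 against 4OHT (limma adjusted p = 0.0438 with the block), kept only without 4OHT replicate 3, and -0.19 for E2 against DMSO (0.0613). Cldn12 lay between 53.8 and 66.3 FPKM, with no call. Tjp1 (ZO-1, the scaffold below the strands) was at 31.5, 30.6 and 33.0 FPKM in DMSO, at 34.4, 33.7 and 31.5 FPKM in E2 and at 28.8, 29.5 and 31.4 FPKM in 4OHT, with all E2 samples above all 4OHT samples. The Tjp1 difference of E2 from 4OHT was 0.15 (limma adjusted p = 0.0744 with the block, 0.394 without).

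Of the polarity genes, Pard3 (Par-3, which positions the junctional belt) was at 28.3, 22.4 and 22.8 FPKM in DMSO, at 36.5, 27.6 and 28.8 FPKM in E2 and at 28.1, 23.7 and 24.4 FPKM in 4OHT. Its log2 difference was 0.32 (SE 0.0398) against DMSO (limma adjusted p = 0.00153 with the block, 0.402 without) and 0.27 against 4OHT (0.00436 with, 0.446 without), and the 3 pairs with DMSO gave 0.35, 0.29 and 0.32. Pard6b was at 24.6, 23.4 and 25.0 FPKM in DMSO, at 21.7, 21.4 and 25.1 FPKM in E2 and at 26.2, 24.5 and 25.7 FPKM in 4OHT. The Pard6b difference was -0.16 for E2 against 4OHT (limma adjusted p = 0.0475 with the block), kept only without E2 replicate 3 or 4OHT replicate 3, and -0.10 for E2 against DMSO (0.195). Crb3, the Crumbs protein of the apical membrane, was at 20.0, 15.4 and 19.5 FPKM in DMSO, at 18.6, 15.2 and 19.6 FPKM in E2 and at 20.7, 17.9 and 20.4 FPKM in 4OHT, and its difference of E2 from 4OHT was -0.14 (0.0553 with the block in limma).

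Promoter windows in the RefSeq table for GRCm38.p6 (mm10, the build of the deposited data) were found for 30 of the 49 members. The windows printed here run from 250 bases before to 30 bases after the start site, are given 5′ to 3′ on the strand of the gene, and belong to 4 members called for E2 against DMSO, to Cldn4, and to Epcam as a member near the floor. Capitals mark 3 kinds of letters searched on both strands, and positions count from the start site: the E-box CACCTG or CAGGTG, the letters that Snail and Zeb factors bind, GGTCA or TGACC, each arm of the estrogen response element, and TGACTCA or TGAGTCA, the AP-1 letters. The windows are Gja1 at chr10:56377050-56377329 (+), Cgn at chr3:94786453-94786732 (-), Pard3 at chr8:127063806-127064085 (+), F11r at chr1:171437311-171437590 (+), Cldn4 at chr5:134946905-134947184 (-) and Epcam at chr17:87635729-87636008 (+).
Gja1: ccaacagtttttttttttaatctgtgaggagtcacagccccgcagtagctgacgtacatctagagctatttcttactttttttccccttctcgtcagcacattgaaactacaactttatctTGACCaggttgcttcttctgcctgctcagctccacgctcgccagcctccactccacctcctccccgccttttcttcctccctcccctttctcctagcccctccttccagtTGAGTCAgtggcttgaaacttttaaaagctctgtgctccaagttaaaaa
Cgn: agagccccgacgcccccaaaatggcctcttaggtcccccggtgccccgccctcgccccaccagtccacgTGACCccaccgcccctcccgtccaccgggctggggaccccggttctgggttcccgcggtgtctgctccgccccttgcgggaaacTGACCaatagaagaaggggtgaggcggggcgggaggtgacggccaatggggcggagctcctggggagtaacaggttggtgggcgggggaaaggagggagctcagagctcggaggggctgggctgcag
Pard3: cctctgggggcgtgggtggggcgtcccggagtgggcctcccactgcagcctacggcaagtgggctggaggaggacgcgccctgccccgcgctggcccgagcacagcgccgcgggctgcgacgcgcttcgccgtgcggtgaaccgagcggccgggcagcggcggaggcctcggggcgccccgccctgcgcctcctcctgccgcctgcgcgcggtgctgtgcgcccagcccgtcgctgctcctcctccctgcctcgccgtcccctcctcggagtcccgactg
F11r: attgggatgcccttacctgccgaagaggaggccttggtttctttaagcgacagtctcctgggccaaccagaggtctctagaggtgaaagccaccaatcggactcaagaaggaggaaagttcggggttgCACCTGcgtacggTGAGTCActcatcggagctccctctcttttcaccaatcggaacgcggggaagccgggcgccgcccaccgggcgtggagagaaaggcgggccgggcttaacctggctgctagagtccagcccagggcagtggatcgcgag
Cldn4: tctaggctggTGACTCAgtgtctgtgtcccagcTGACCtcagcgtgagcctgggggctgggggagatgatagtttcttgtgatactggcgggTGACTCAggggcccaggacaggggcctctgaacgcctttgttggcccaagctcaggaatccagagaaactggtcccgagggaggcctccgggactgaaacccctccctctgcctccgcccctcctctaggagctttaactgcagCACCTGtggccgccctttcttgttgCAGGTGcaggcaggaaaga
Epcam: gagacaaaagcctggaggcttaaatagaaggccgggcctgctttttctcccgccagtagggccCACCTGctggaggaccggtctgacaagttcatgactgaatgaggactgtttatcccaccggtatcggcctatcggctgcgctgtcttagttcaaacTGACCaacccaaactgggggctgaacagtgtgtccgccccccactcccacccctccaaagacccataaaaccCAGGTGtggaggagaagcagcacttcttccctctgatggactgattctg

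The Gja1 window held TGACC at -129 and TGAGTCA at -19, and the Cgn window held TGACC at -181 and -97. F11r had CACCTG at -122 and TGAGTCA at -109, and Epcam had CACCTG at -187, TGACC at -91 and CAGGTG at -19. Cldn4 held all 3 kinds, with TGACTCA at -240 and -158, TGACC at -217, CACCTG at -14 and CAGGTG at 12. The Pard3 window printed, the one nearest the start of the gene annotation, held none of these letters, but another Pard3 window in the table held an E-box and TGACC, so Pard3 counts among the members that have them in the next sentence. Over the 30 members with a window, 15 (50%) had an E-box in at least 1 window, against 21.3% of the 27025 genes in the table, 14 (46.7%) had GGTCA or TGACC, against 41.7%, and 4 (13.3%) had the AP-1 letters, against 5.68%. By level, 8 of the 10 members with a window that stayed under 1 FPKM had an E-box, and 7 of the 20 tested members with a window did. The share of all genes by level was not computed, and 19 members, Cdh1 among them, had no window. A link between the E-box and level was not tested. No member window held the full estrogen response element, GGTCA and TGACC set 3 bases apart, which 0.0703% of genes had. These are matches of letters in short windows and not sites of binding. Cdh1, Cdh2, Cdh3, Cdh11, Ctnna1, Dsg2, Dsc2, Pkp1, Pkp2, Pkp3, Perp, Marveld3, Esrp1, Esrp2, Grhl2, Ovol1, Zeb1, Snai2 and Gjc1 had no window.

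Genes of the same structures that are not members were counted from lists of 101 genes, 99 of which were found and 47 tested. In limma without the block, 0 of 47 passed in any comparison, and 11, 1 and 7 had an unadjusted p under 0.05 for E2 against DMSO, 4OHT against DMSO and E2 against 4OHT. With the block, 19 passed for E2 against DMSO (11 higher, 8 lower), 0 for 4OHT against DMSO (7 at an unadjusted p under 0.05) and 15 for E2 against 4OHT (11 higher, 4 lower), against the same 18.5%, 0.124% and 21.5% of all rows. Among the 11 higher in E2 than in 4OHT was Fn1, named after its values were seen. Fn1 was listed at exact 0 in 5 of 9 samples, which were left out of the fit. Only replicate 1 of Fn1 remained in DMSO and in 4OHT, so its difference of E2 from 4OHT, 0.46, rests on few values. For E2 against DMSO, the other tight junction genes gave 1 higher of 17 tested and the other adherens junction genes 2 higher and 2 lower of 11. All 3 tested genes of the other desmosome list were lower, the single other gap junction gene tested did not pass, and the other transition genes gave 8 higher and 3 lower of 15. The genes named next, in this paragraph and the next, were picked after their values were seen. Vcl (vinculin, which ties adherens junctions and focal adhesions to actin) averaged 213 ± 22.1 FPKM in DMSO, 284 ± 31.2 FPKM in E2 and 224 ± 28.6 FPKM in 4OHT (SD, n = 3), and its log2 difference of E2 from DMSO was 0.41 (limma adjusted p = 0.000572 with the block). Ablim1, an actin-binding LIM protein, averaged 6.89 ± 1.61, 4.62 ± 1.14 and 6.48 ± 1.31 FPKM, with a difference of -0.49 (limma adjusted p = 0.000383 with the block). Ppl and Evpl, plakins of the desmosome and cornified envelope, differed by -0.34 and -0.32 (limma adjusted p = 0.0277 and 0.0152 with the block).

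Of the other transition genes, the 8 that were higher with E2 than with DMSO in the fit with the block were Elf3, Tgfbi, Sox9, Tgfb2, Prrx1, Klf4, Tgfb1 and Rbm47, and the 3 lower were Twist2, Lef1 and Tcf3. Elf3 and Rbm47 are known as factors of epithelial cells, while Prrx1, Twist2 and Tgfb2 are known for their part in the transition. Elf3 was at 35.5, 14.6 and 16.2 FPKM in DMSO, at 116, 75.8 and 0 FPKM in E2 and at 32.7, 21.5 and 22.3 FPKM in 4OHT, and its exact 0 in E2 replicate 3 was left out of the fit. The Elf3 difference of E2 from DMSO was 2.03 (limma adjusted p = 0.000266 with the block, 0.0752 without). Klf4 and Rbm47 differed by 0.49 and 0.28, and Twist2 and Lef1 by -0.38 and -0.32 (limma adjusted p = 0.000741, 0.0292, 0.0145 and 0.0259 with the block). Sox9 averaged 6.48 ± 3.06, 11.6 ± 4.76 and 6.72 ± 2.65 FPKM, with a difference of 0.77, and Tgfb2, a ligand that can start the transition, averaged 21.7 ± 4.23, 34.6 ± 3.30 and 21.3 ± 4.19 FPKM, with a difference of 0.66 (limma adjusted p = 7.32e-05 and 0.000597 with the block). Cldn10, a tight junction gene below the filter, was at 0.362, 0.0326 and 0.0261 FPKM in DMSO, at 2.62, 0.664 and 0.640 FPKM in E2 and at 0.340, 0 and 0 FPKM in 4OHT, with every E2 sample above every other sample. Its mean was 0.140 FPKM in DMSO and 1.31 FPKM in E2. With no filter on low values, the Cldn10 difference of E2 from DMSO was 0.93 on the log2(FPKM + 1) scale (limma adjusted p = 0.0230 with the block, 0.395 without).

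Among the cell type markers, Krt7, a keratin of simple epithelia, was higher with E2 also in the fit without the block. It was at 439, 222 and 267 FPKM in DMSO, at 927, 748 and 775 FPKM in E2 and at 353, 301 and 316 FPKM in 4OHT, and every E2 sample lay above every other sample. The log2 difference of E2 from DMSO was 1.45 (limma adjusted p = 0.0325 without the block, 0.000303 with it). With the block, Krt8, Krt18 and Krt19 were also higher in E2 than in DMSO, by 0.44, 0.52 and 0.51 on the log2 scale, while the junction genes Cdh1 and Epcam of the same list stayed below 1 FPKM.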

How the data were processed

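RNA was sequenced from 9 samples of FVB MOE cells, 3 per condition. The study's methods describe oligo-dT selected, directional 50-base single-end libraries aligned to mm10 with TopHat2 2.0.8b and quantified with Cufflinks and Cuffdiff 2.1.1, and the authors deposited 1 FPKM value per gene row and sample (23332 rows). Whether these values carry a further scaling between samples is not given in the sources used here. The tables analysed hold FPKM only, and no interval for counting error is given. From the steps of low values, depth relative to DMSO replicate 1 was 1 to 1.2 in DMSO, 0.835 to 1.07 in E2 and 0.812 to 0.933 in 4OHT, so every 4OHT sample was shallower than every DMSO sample.

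The values were tested on the log2(FPKM + 1) scale, which understates changes of low genes, with limma 3.58.1 (R 4.3.3; trend, Benjamini-Hochberg over all rows tested) on 11339 rows with at least 1 FPKM in at least 3 samples. An exact 0 in a row whose median nonzero FPKM was 5 or more was set to missing (516 values in 217 rows, none in a member), which leaves 11334, 11325 and 11328 rows for E2 against DMSO, 4OHT against DMSO and E2 against 4OHT. All 9 samples entered 1 fit. Replicate numbers 1 to 3 recur in the labels of each condition. Deviations from the condition mean were correlated between samples to see whether a shared number pairs them: over 11094 rows with no exact 0, correlations of same-numbered samples were 0.523 to 0.828, and those of other pairs -0.647 to 0.0640. The 3 deviations of a condition sum to 0, so high correlations of same-numbered samples push those of other pairs down. The low values of other pairs are thus no separate support. The pairing therefore comes from the data. Counts are given with and without the replicate block. For some named genes only the adjusted p with the block is printed, and the fit without the block called none of these. The script was tested on simulated data with known changes.

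Members, lists and motifs were chosen with earlier results of these data known, so no p is adjusted over a list alone. Values in every sample are given for members with an adjusted p under 0.05 in either fit, for the anchors Cdh1, Cdh2, Epcam, Ctnnb1, Tjp1, Zeb1, Zeb2, Snai1, Snai2, Twist1, Vim and Gja1, and for up to 3 members per comparison with the largest difference that passed in neither fit, and the others by range. Marker lists covered epithelium, oviduct secretory cells, ciliated cells, fibroblast and stroma, smooth muscle, endothelium, leukocytes and mesothelium. Alternatives were the replicate block, zeros as values, another rule for zeros, pseudocount 0.1, no filter, upper-quartile scaling, no trend, only the 6 samples compared, leaving out samples, and a threshold of 0.01. Coordinates are those of GRCm38.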

Additional observations from a re-analysis of the deposited data

How the results depend on the processing

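Without the replicate block, the count of members past the threshold was 0 in each comparison under every alternative run. With the replicate block it was 15 (9 higher, 6 lower) for E2 against DMSO, 0 for 4OHT against DMSO and 15 for E2 against 4OHT. With the block and zeros kept as values it was 10, 0 and 11, with the block and upper-quartile scaling 13, 0 and 15, with the block and no filter on low values 9, 0 and 9 of the same 29, and with the block and without replicate 1 of every condition 7, 0 and 5. Blocked fits without 1 sample gave 6 to 12 members for E2 against DMSO and 4 to 13 for E2 against 4OHT; the counts were 8, 6 and 7 without DMSO replicates 1, 2 and 3, 8 without E2 replicate 1 or 3 in the former, and 4 and 7 without 4OHT replicates 1 and 2 and 10 without DMSO replicate 3, E2 replicate 1 or E2 replicate 2 in the latter. Over all rows, blocked fits without 1 sample called 946 to 1858 rows for E2 against DMSO and 658 to 2363 for E2 against 4OHT. With all samples, the blocked fit called 2096 and 2435. Counts over all rows are not given here for the other alternatives. Blocked fits that leave out a sample, that use upper-quartile scaling or no filter, or that drop replicate 1 were added after the data were seen. Of the other junction and transition genes, the replicate block called 19 and 15 in the E2 comparisons, 14 and 13 with zeros kept, 18 and 17 with upper-quartile scaling, 13 and 12 with no filter and 15 and 11 without replicate 1 of every condition. Without 1 sample, blocked fits called 12 to 18 of them for E2 against DMSO, 0 to 1 for 4OHT against DMSO and 9 to 16 for E2 against 4OHT. Without the block and without 1 sample, 0 to 1 of them was called in each E2 comparison (1 without DMSO replicate 1), and 2 and 1 without replicate 1 of every condition. A tally took the 30 differences of single members that passed with the block. It set 930 alternatives against the fit without the block, where none of the 30 passed, so calls could only be gained. Of the 930, 649 kept direction and side of the threshold, 280 passed it only in the alternative, and 1 changed sign. That was Cldn4 in fits without the block, where the difference of E2 from 4OHT ranged from -0.41 without 4OHT replicate 1 to 0.0912 without E2 replicate 1. Blocked fits that leave out 1 sample kept it between -0.262 and -0.134. Replicate 1 of Cldn4 was the lowest of its condition in all 3 conditions. The cause of the sign change was not tested, although the Cldn4 replicates spread from 4.99 to 10.6 FPKM in E2. The log2(FPKM + 1) scale limits the size of any difference in members below 1 FPKM.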

Other observations

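The 4 secretory markers summed to 116 to 166 FPKM in DMSO, 147 to 206 FPKM in E2 and 114 to 164 FPKM in 4OHT. The ciliated list, 4 of 5 markers found, summed to 423 to 550, 413 to 441 and 455 to 580 FPKM, most of it Tubb4b, a tubulin of many cell types. The smooth muscle list summed to 947 to 1451, 1300 to 1756 and 1262 to 1553 FPKM, most of it Acta2, the mesothelial list to 166 to 219, 141 to 192 and 173 to 213 FPKM, the endothelial list to 0.638 to 0.837, 1.18 to 1.42 and 0.722 to 0.870 FPKM, and the leukocyte list to 3.98 to 4.05, 3.65 to 3.89 and 3.03 to 3.72 FPKM, most of it Cd68. Gjb5, below the filter, was at 0.0910, 0.156 and 0.0880 FPKM in DMSO, at 0.0536, 0.0980 and 0.0866 FPKM in E2 and at 0.282, 0.316 and 0.182 FPKM in 4OHT. All 3 4OHT samples of Gjb5 lay above all others. With no filter on low values, its difference of 4OHT from DMSO was 0.18 on the log2(FPKM + 1) scale (limma adjusted p = 0.323 with the replicate block and 1 without).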
